A study of Mus musculus with 2 samples.

Results

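The 6 retinoid receptor genes of the mouse, *Rara*, *Rarb*, *Rarg*, *Rxra*, *Rxrb* and *Rxrg*, were followed through the cell classes of the early postnatal pituitary. They were taken by symbol and are 6 of the 31055 features counted. The cells are the GFP+ve fraction sorted from pituitaries of *Sox9iresGFP/+* mice at postnatal day 3 (P3), in which GFP is made from the locus of *Sox9*, a stem cell (SC) gene. Both libraries share this genotype and age, no treatment is named, and the background is C57/Bl6J by the study's reporting notes. There is 1 droplet library of male and 1 of female cells, each from 3 pooled pituitaries, so that sex, animals, sort and preparation cannot be told apart and no test was possible.

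Retinoic acid (RA) enters the nucleus and binds the retinoic acid receptors (RARs), encoded by *Rara*, *Rarb* and *Rarg*. A RAR sits on DNA as a dimer with a retinoid X receptor (RXR), encoded by *Rxra*, *Rxrb* or *Rxrg*, and exchanges co-repressors for co-activators when RA is bound. RXRs are also the partners of the thyroid hormone, vitamin D, PPAR and liver X receptors. In the pituitary, RA is made by retinaldehyde dehydrogenases such as ALDH1A2. *Rarb* is itself a textbook RA target, switched on through a response element in its promoter, and *Rxrg* is known as the RXR of thyrotrophs.

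The 2 genes whose levels varied most between classes were *Rarb* and *Rxrg*, and their promoters are shown for that reason. The sequences are those of RefSeq on GRCm38.p6, from 250 bases before to 50 after a transcript start, and all 6 genes were matched, with 13 windows. The letters searched on both strands were a receptor hexamer, either AGGTCA in its usual form or AGTTCA as a variant, with GGGTCA as a further form and GGTTCA as the last. Pairs of them in tandem with 5, 2 or 1 bases between them (DR5, DR2 and DR1) were also searched, and these contain the single hexamers. The 17 bases in capitals in the *Rarb* promoter are a DR5. In the *Rxrg* windows, which hold no such pair, capitals mark single hexamers on either strand.

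*Rarb*, chr14:16575427-16575726, minus strand: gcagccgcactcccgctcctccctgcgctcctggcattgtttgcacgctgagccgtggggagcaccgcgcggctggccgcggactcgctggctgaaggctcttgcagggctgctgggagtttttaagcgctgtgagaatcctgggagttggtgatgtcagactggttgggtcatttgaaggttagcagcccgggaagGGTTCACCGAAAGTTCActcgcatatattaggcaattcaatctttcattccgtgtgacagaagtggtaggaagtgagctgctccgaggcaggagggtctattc
*Rxrg*, first start, chr1:167598112-167598411, plus strand: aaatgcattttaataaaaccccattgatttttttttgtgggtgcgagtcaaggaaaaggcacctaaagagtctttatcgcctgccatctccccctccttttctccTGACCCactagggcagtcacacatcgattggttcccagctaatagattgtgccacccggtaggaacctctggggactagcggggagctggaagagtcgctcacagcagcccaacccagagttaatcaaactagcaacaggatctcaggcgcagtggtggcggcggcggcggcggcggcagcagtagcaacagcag
*Rxrg*, second start, chr1:167618015-167618314, plus strand: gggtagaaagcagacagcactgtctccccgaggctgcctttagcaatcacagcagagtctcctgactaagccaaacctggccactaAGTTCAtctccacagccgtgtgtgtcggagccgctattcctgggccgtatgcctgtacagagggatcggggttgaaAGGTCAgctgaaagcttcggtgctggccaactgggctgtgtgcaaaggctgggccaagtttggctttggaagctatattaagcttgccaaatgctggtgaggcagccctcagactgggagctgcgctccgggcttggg

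The *Rarb* DR5 lies at chr14:16575513-16575529, with its first base 53 bases before the transcript start. A DR5 was found in 32 of all 32851 promoter windows, a share of 0.0974%, and in 1 of the 13 receptor windows. A single hexamer was in 43.7% of all windows and in 7 of the 13, from 5 of the genes. DR2 (0.268% of windows) and DR1 (0.222%) were found in none of the 13. The letters TATNCAT, a short form of the POU1F1 motif, were in 8.84% of all windows and in 1 receptor window, that of *Rarg* at chr15:102246451-102246750. They were in neither *Rxrg* window. These are matches of letters within 300 bases, not binding sites.

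On mm10 (GENCODE vM21), the RAR genes are *Rara* at chr11:98927818-98974942, *Rarb* at chr14:16430839-16819156 and *Rarg* at chr15:102234938-102257517. The RXR genes are *Rxra* at chr2:27676440-27762957, *Rxrb* at chr17:34031812-34038399 and *Rxrg* at chr1:167598384-167639623. *Rara*, *Rxra*, *Rxrb* and *Rxrg* are on the plus strand, and *Rarb* and *Rarg* on the minus strand. The last 4624 bases of *Rarb* overlap *Top2b* on the other strand, and use of strand in the counting is not given in the sources used here. *Top2b* was at 127 to 207 CPM in the 12 sums of class and library and did not follow the order of *Rarb*. *Rarb* also overlaps an antisense gene, *Gm48162*, and *Rara* encloses a small nuclear RNA, *Gm22061*.

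Cells with at least 2000 unique molecular identifiers (UMIs) were used, 7769 male and 5615 female, with a median of 11321 and 9877 UMIs. This minimum left out 25.4% of male cells, as against 1.68% of female cells. Classes were set by raw UMIs of marker genes, none of them a retinoid receptor gene. SCs (*Sox2* and *Sox9*, no *Lef1*) were 1630 male and 1722 female cells. Differentiating cells (*Lef1*) were 756 and 562, gonadotrophs (*Cga* with *Gnrhr*, *Nr5a1*, *Fshb* or *Lhb*) 428 and 39, and POU1F1-lineage cells (*Pou1f1*) 668 and 261. Melanotrophs (*Pomc* with *Pax7*) were 171 and 88, and mesenchymal cells (*Dcn*) 585 and 313. The sort can set these numbers, and the 39 female gonadotrophs give the widest intervals. The libraries share 19 barcodes.

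Of 25 markers of the classes that were not used to set them, 23 were highest in their own class in both libraries. The exceptions were *S100b*, an SC marker, at 0.518 and 0.296 CPM in SCs, and *Gata2*, a gonadotroph marker, at 39.1 and 13.3 CPM in gonadotrophs. Both were highest in mesenchymal cells, *S100b* at 15.5 and 19.9 CPM and *Gata2* at 79.1 and 57.7. In mesenchymal cells, a list of 5 endothelial genes summed to 208 and 248 CPM and one of 4 pericyte genes to 221 and 205 CPM, against at most 6.24 and 4.5 in the other classes. Most of it was *Emcn* (174 and 202) and *Pdgfrb* (200.4 and 178). The endothelial gene *Cdh5* was at 29.6 and 42.8 CPM and the pericyte gene *Kcnj8* at 11.5 and 16.3. *Pecam1*, also an endothelial gene, was at 0.344 and 0.725, with *Kdr* and *Plvap* at most 3.1. The pericyte genes *Rgs5* and *Cspg4* were at most 6.02. Of 5 blood and immune genes, the sum was at most 3.26 CPM in any class. Hormone genes were also counted outside their own classes, with *Gh* at 386 and 187 CPM in SCs and *Pomc* at 1125 and 68.8 CPM in POU1F1-lineage cells. Their part in the results was not tested.

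**Figure D1:**
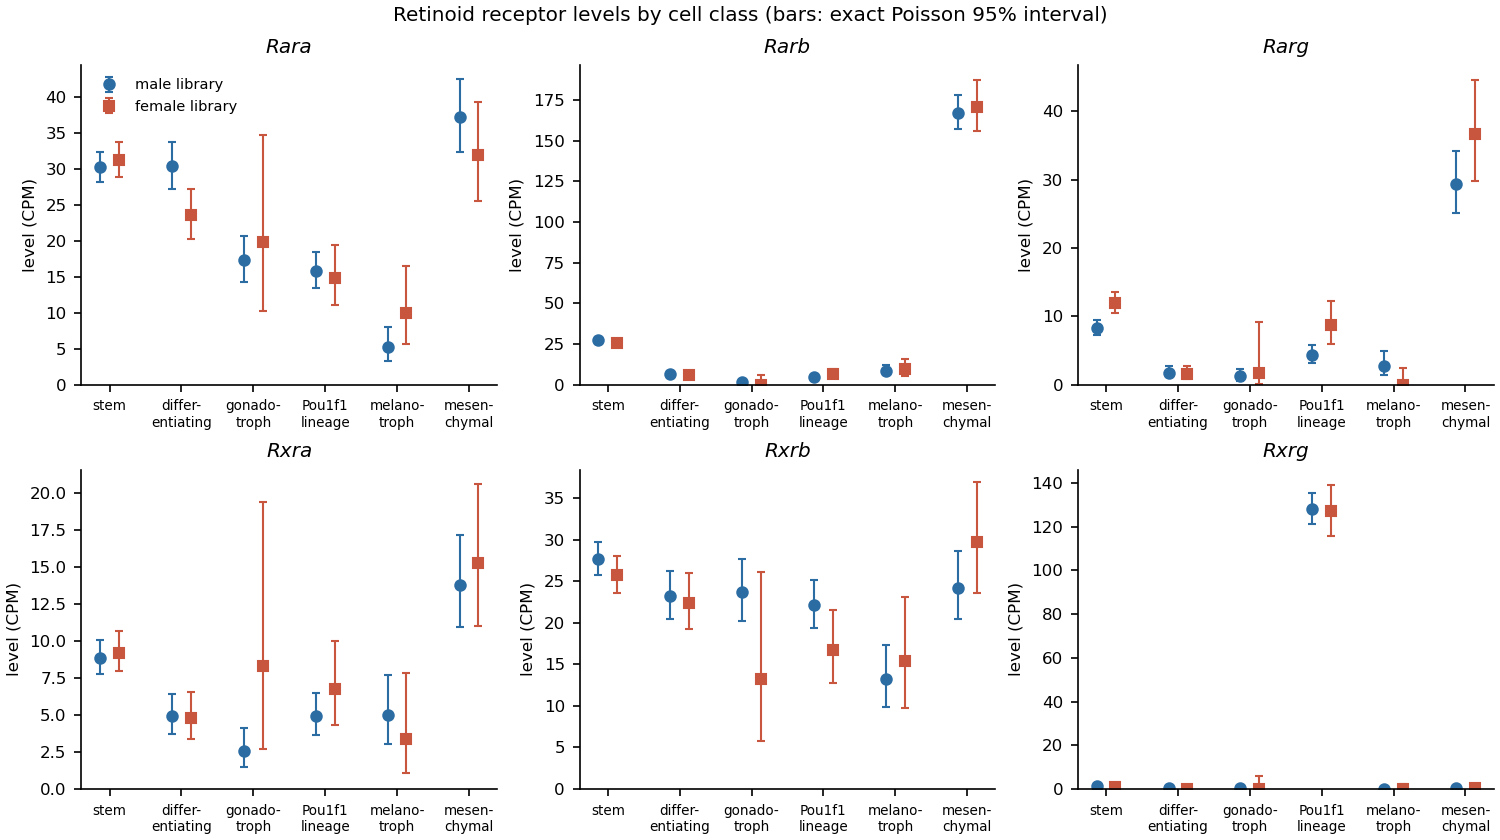
Level of each retinoid receptor gene (vertical axis, CPM, UMIs of the gene per 1000000 UMIs, from 0) in 6 cell classes (horizontal axis) for the male (circles) and female (squares) library, with exact Poisson 95% intervals as bars. *Rarb* stands at 167 and 171 CPM in mesenchymal cells, *Rxrg* at 128 and 127 CPM in POU1F1-lineage cells, and *Rxrb* stays between 13.2 and 29.7 CPM.

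Levels were sums of a gene's UMIs in 1 class and library, per 1000000 UMIs of the same cells (CPM), with an exact Poisson 95% interval in brackets. UMIs from 3′ ends count each captured molecule once and are not divided by gene length, and how well each gene is captured is not known. A lower level can be fewer molecules per cell or fewer cells with any, which a sum does not tell apart. Intervals cover counting error only. A class was called different from SCs where the level was past 2-fold the same way in both libraries, among genes at 10 CPM or more in at least 1 of the classes compared in each library. Of 30 pairs of receptor and class, 18 could be tested and 8 were called, 3 higher and 5 lower. *Rxrg* in POU1F1-lineage cells passed the minimum only through the class where it was high, as did *Rarg* in male and *Rxra* in both libraries of mesenchymal cells. Likewise, *Rarb* in each class where it was called lower, and *Rara* in male melanotrophs, passed only through SCs. The same rule called 16.5% of all genes tested in differentiating cells, 24.5% in gonadotrophs, 18.0% in POU1F1-lineage cells, 26.8% in melanotrophs and 23.4% in mesenchymal cells, as background for these counts.

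*Rarb*, the RA-inducible receptor, was the most variable RAR. It was at 27.3 CPM (25.3–29.3) in male and 25.9 (23.7–28.2) in female SCs. In mesenchymal cells it was at 167 (157–178) and 171 (156–187) CPM. It was higher there than in SCs by 6.13-fold (5.57–6.76) in the male and 6.59-fold (5.81–7.48) in the female, and mesenchymal cells stood far above all other classes in both. The endothelial and pericyte genes named above move with this class, and their part in the result was not tested.

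In all 4 other classes *Rarb* was lower than in SCs. Differentiating cells had 6.71 (5.28–8.40) and 5.93 (4.34–7.91) CPM, a ratio to SCs of 0.246 (0.192–0.312) and 0.229 (0.166–0.310). Male gonadotrophs had 1.65 CPM (0.825–2.96) from 11 UMIs, 0.0606 times the level of SCs (0.0301–0.109). Female gonadotrophs had no UMI, which with 3 counts as the limit allows up to 4.98 CPM, or at most 0.192 times SCs. Gonadotrophs were thus the class with the least *Rarb* in both libraries, in females only by a count of 0. POU1F1-lineage cells had 4.62 and 6.43 CPM (ratios of 0.170 and 0.248) and melanotrophs 8.73 and 9.35 CPM (0.320 and 0.361). Between neighbours in the order among melanotroph, differentiating and POU1F1-lineage cells, the intervals of the ratio included 1 in both libraries. Only mesenchymal cells, SCs and, in males, gonadotrophs were thus set apart from each neighbour. Classes further apart in the order were not compared with each other. In males, melanotrophs (6.08–12.1 CPM) and POU1F1-lineage cells (3.40–6.15) had intervals that barely overlapped.

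*Rarg*, the receptor best known from skin and cartilage, was likewise highest in mesenchymal cells, at a lower level. It was at 29.4 CPM (25.2–34.2) in male and 36.6 (29.8–44.5) in female mesenchymal cells, 3.53-fold (2.88–4.33) and 3.05-fold (2.39–3.86) above SCs. SCs had 8.33 (7.28–9.49) and 12 (10.6–13.6) CPM. All other classes had less than SCs in both libraries, although in female POU1F1-lineage cells the interval of the difference included 1. Differentiating cells had 1.77 and 1.55 CPM and gonadotrophs 1.2 and 1.66, the latter from 1 UMI in the female library. POU1F1-lineage cells had 4.33 and 8.67, and melanotrophs 2.74 and 0 (0 UMIs, allowing up to 2.0 CPM). These pairs did not reach 10 CPM in both libraries and were not tested. In differentiating cells the ratio to SCs was 0.212 (0.127–0.335) and 0.129 (0.0656–0.229), beside the 0.246 and 0.229 of *Rarb*. With stricter marker thresholds these *Rarg* ratios were 0.0534 (0.00641–0.197) and 0.0281 (0.000706–0.159).

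*Rara*, the most widely expressed RAR in adult tissues, varied less. Male SCs had 30.3 CPM (28.2–32.4) and female SCs 31.2 (28.8–33.8). Differentiating cells had 30.4 (27.2–33.7) and 23.6 (20.3–27.3), and mesenchymal cells 37.1 (32.4–42.4) and 31.9 (25.6–39.3). Against SCs, the ratio in differentiating cells was 1.0 (0.882–1.14) in males and 0.756 (0.637–0.892) in females. Gonadotrophs and POU1F1-lineage cells lay between 14.8 and 19.9 CPM. Their ratios to SCs were 0.571 and 0.637 in gonadotrophs and 0.523 and 0.475 in POU1F1-lineage cells, past 2-fold in the female library only. With median-of-ratios scaling the POU1F1-lineage ratios were 0.480 and 0.450, past 2-fold in both. Melanotrophs were lowest, at 5.24 (3.24–8.01) and 10.0 (5.61–16.5) CPM, a ratio of 0.173 (0.107–0.267) and 0.321 (0.179–0.533) that was called. In the female library this lay within counting error of POU1F1-lineage cells.

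In melanotrophs *Pomc* alone took 269900 and 141770 CPM, which lowers the CPM of other genes there. The median gene was lower than in SCs by a log2 ratio of -0.331, against -0.08 with median-of-ratios scaling and 0.02 with totals free of hormone and mitochondrial genes. With those free totals, the ratios to SCs in melanotrophs became 0.240 and 0.375 for *Rara* and 0.445 and 0.422 for *Rarb*, and both stayed past 2-fold. Among all genes called in melanotrophs, 31.0% were higher, against 43.1% and 47.4% under these scalings. In gonadotrophs and POU1F1-lineage cells, median-of-ratios scaling moved the median gene from 0.06 to -0.06 and from 0.04 to -0.06.

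*Rxrg* was the receptor most restricted to a class. POU1F1-lineage cells, the precursors and cells of the somatotroph, lactotroph and thyrotroph lines, had 128 (121–135) and 127 (116–139) CPM, from 1305 and 454 UMIs. SCs had 1.41 CPM (38 UMIs) and 0.788 CPM (16 UMIs). The difference was 91.2-fold (66.1–129) and 161-fold (98.2–284), the largest of all receptor ratios. Differentiating, gonadotroph and mesenchymal cells had between 0 and 0.618 CPM. Melanotrophs had no UMI among 171 and 88 cells, which allows up to 0.749 and 2.0 CPM. With each cell drawn down to 5000 UMIs, 42.1% of male (38.2–46.1) and 40.9% of female (34.8–47.1) POU1F1-lineage cells had a *Rxrg* UMI, against 0.753% and 0.294% of SCs. At full depth the shares were 62.6% and 59.8%, against 2.09% and 0.871% of SCs, with medians of 13451 and 12336 UMIs in POU1F1-lineage cells and 12508 and 10028 in SCs.

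*Rxrb*, a broadly expressed RXR, was the most even member. Its levels ran from 13.2 to 29.7 CPM over all 12 sums. SCs had 27.7 (25.8–29.8) and 25.7 (23.6–28.0) CPM, and mesenchymal cells 24.3 and 29.7. It was not called in any class. Melanotrophs had ratios to SCs of 0.477 (0.354–0.630) and 0.598 (0.376–0.907), which became 0.662 and 0.699 with hormone-free totals. Female gonadotrophs were at 0.516 (0.222–1.02) from 8 UMIs, with an interval that included 1. From SCs down to POU1F1-lineage cells, the male neighbours in the order of levels could not be told apart within their counting error. Set directly against SCs, POU1F1-lineage cells were lower in both libraries, at 0.798 (0.684–0.927) and 0.653 (0.491–0.854). Differentiating cells were at 0.837 (0.724–0.964) in males and 0.873 (0.731–1.04) in females.

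*Rxra*, the RXR of liver and skin, was at 13.8 (10.9–17.1) and 15.2 (11–20.6) CPM in mesenchymal cells and 8.85 (7.76–10.0) and 9.21 (7.94–10.6) in SCs. The ratio of 1.55 (1.19–2.01) and 1.65 (1.15–2.32) stayed short of 2-fold. Differentiating cells had 4.94 and 4.77 CPM, with a ratio to SCs of 0.558 (0.410–0.75) and 0.518 (0.354–0.740). Male gonadotrophs had 2.55 CPM and female gonadotrophs 8.29, the latter from 5 UMIs. The remaining classes lay between 3.34 and 6.71 CPM, so that *Rxra* kept the same upper order as *Rarg*, mesenchymal cells before SCs, over a smaller range.

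**Figure D2:**
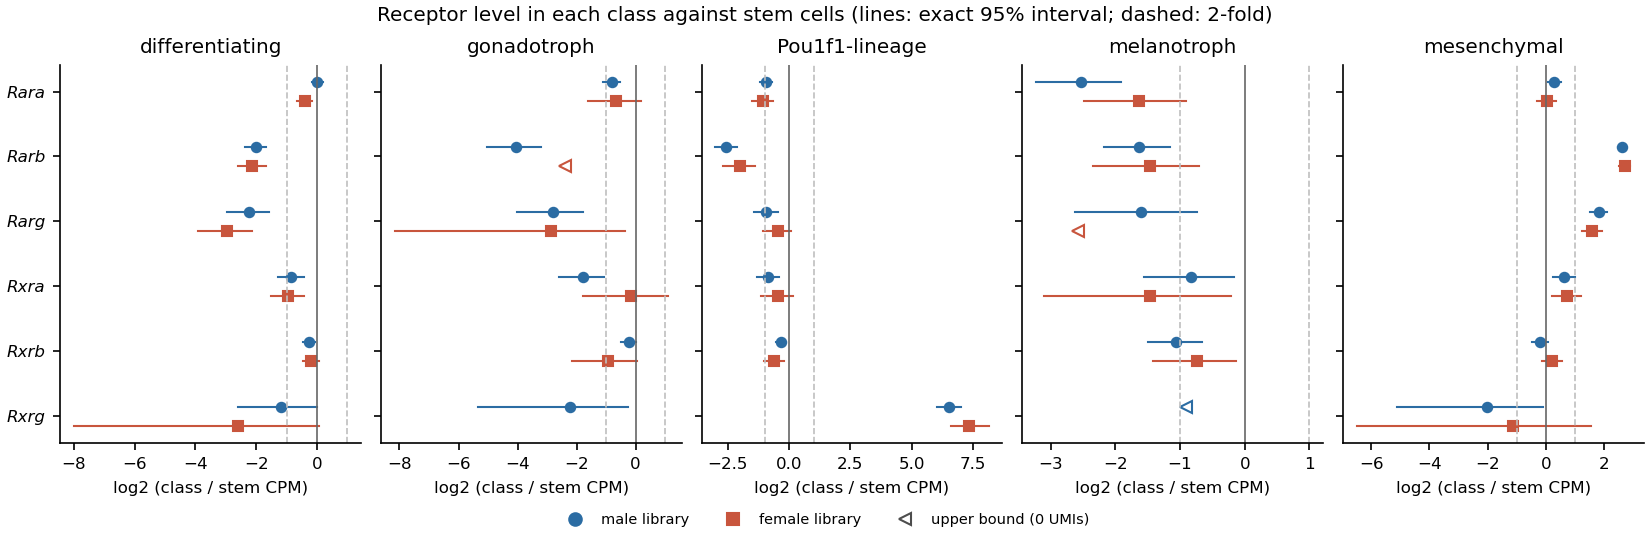
Level in each of 5 classes over that in SCs (horizontal axis, log2 ratio of CPM) for the 6 receptor genes (vertical axis) in the male (circles) and female (squares) library. Lines are exact 95% intervals, and open triangles are upper bounds where no UMI was seen. *Rxrg* in female gonadotrophs and female melanotrophs, with no UMI and no bound below the level of SCs, is not drawn. Dashed lines mark 2-fold; *Rarb* lies left of them in 4 classes and right of them in mesenchymal cells, and *Rxrg* lies at 91.2-fold and 161-fold in POU1F1-lineage cells.

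The make-up of the receptor UMIs does not depend on the scaling. *Rara* gave 46.0% (43.6–48.3) and 45.2% (42.5–47.8) of RAR UMIs in male and female SCs, and *Rarb* 41.4% and 37.5%. In differentiating cells *Rara* gave 78.2% (74.0–82.0) and 75.9% (70.0–81.2), and in gonadotrophs 85.8% (78.7–91.2) and 92.3% (64.0–99.8, of 13 UMIs). In mesenchymal cells the balance was the reverse, with *Rarb* at 71.5% (69.0–73.9) and 71.4% (67.7–74.8). *Rxrb* gave 73.0% and 72.0% of RXR UMIs in SCs and *Rxrg* 82.6% and 84.4% in POU1F1-lineage cells. RAR UMIs exceeded RXR UMIs in SCs, by 1.73 (1.60–1.87) and 1.94 (1.77–2.12), and most of all in mesenchymal cells, by 6.09 (5.29–7.05) and 5.28 (4.36–6.44). In POU1F1-lineage cells the ratio was 0.159 (0.139–0.182) and 0.199 (0.160–0.245), below that of each other class in both libraries.

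**Figure D3:**
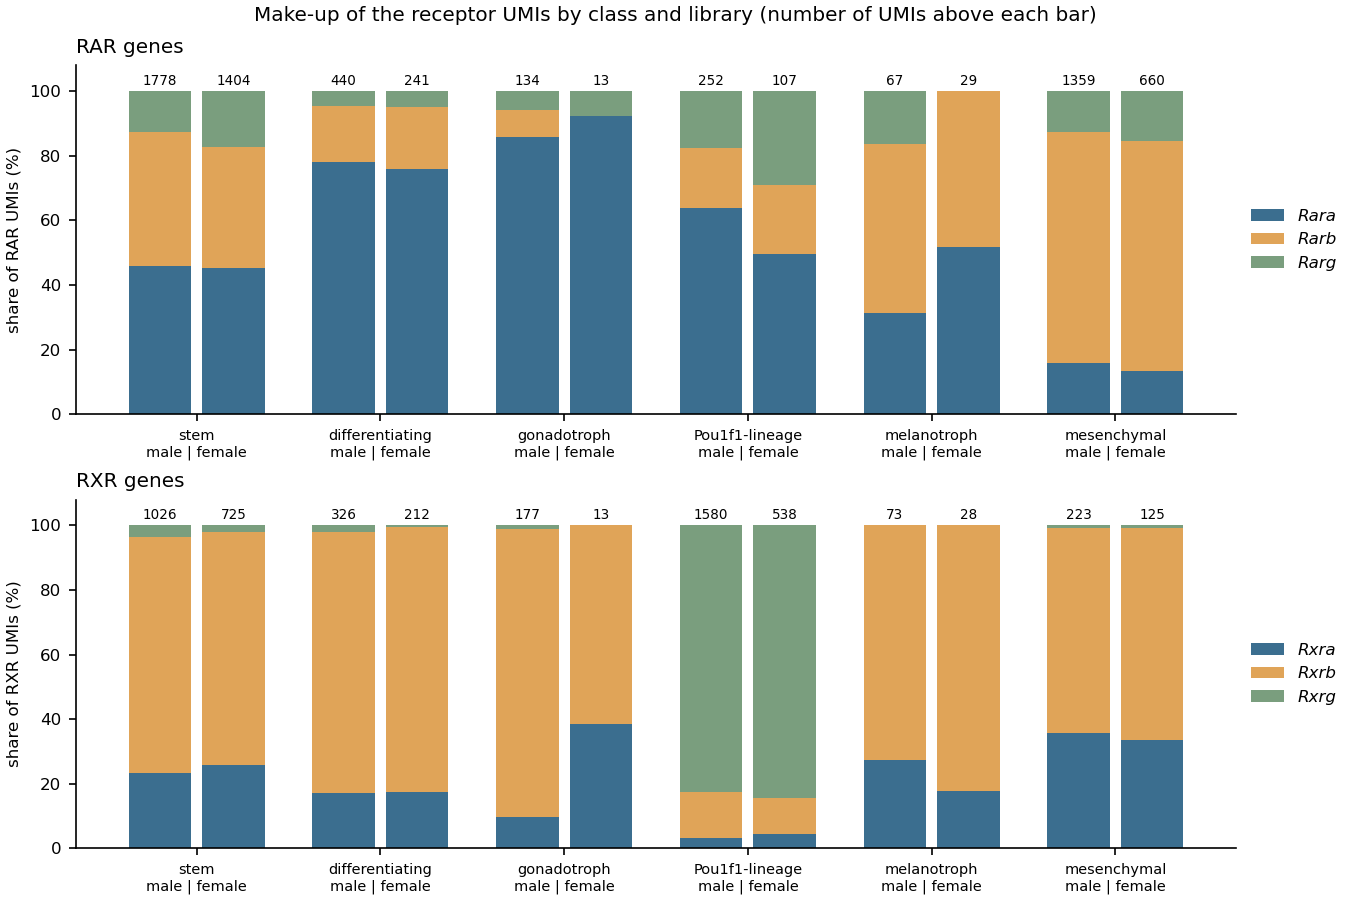
Share of each gene (vertical axis, percent) in the UMIs of the 3 RAR genes (upper panel) and the 3 RXR genes (lower panel), by class and library (horizontal axis, male left and female right), with the number of UMIs above each bar. *Rarb* makes up 71.5% and 71.4% of RAR UMIs in mesenchymal cells, and *Rxrg* 82.6% and 84.4% of RXR UMIs in POU1F1-lineage cells.

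The cuts between classes were then replaced by the UMIs of a marker, in bins chosen after the levels were seen. The class threshold of each marker (2 *Pou1f1*, 2 *Lef1*, 5 *Dcn*) was kept as a bin edge. Only cells with *Dcn*, *Pomc*, *Cga* and *Pou1f1*, apart from the binned marker, under their class thresholds were taken. In cells with 0, 1, 2 to 3, 4 to 7 and 8 or more *Pou1f1* UMIs, *Rxrg* was at 1.08, 9.37, 54.2, 97.5 and 128 CPM in the male library. In the female library it was at 0.637, 10.7, 85.1, 137 and 121 CPM. *Rxrg* was thus higher in each male bin than in the one before, and in the female library level over the last 2 bins within their intervals (114–165 and 106–137). In *Sox2*+ve cells with 0, 1, 2 to 3 and 4 or more *Lef1* UMIs, *Rarb* was at 25.3, 14.7, 8.36 and 4.46 CPM in males and 25.1, 11.9, 7.18 and 3.08 in females. *Rarg* followed the same order, from 7.89 to 0.496 CPM and from 9.97 to 0.384, the last from 2 and 1 UMIs. *Rara* did not in males, at 30.0, 32.3, 32.9 and 27.3 CPM. In females it was at 28.7, 23.9, 24.4 and 22.7 CPM, lower in each bin with *Lef1* than without. *Lef1*, a WNT effector, was more often seen in deeper cells, with male bin medians from 9820 to 15218 UMIs and female from 9129 to 14233.

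Along *Dcn*, the largest change in *Rarb* was at 1 step. With 0 and 1 to 4 *Dcn* UMIs it was at 20.4 (19.3–21.5) and 27.5 (21.3–35.0) CPM in males. In females it was at 20.8 (19.6–22.1) and 23.6 (13.2–39.0). The median depth of these bins was 10582 and 5535 UMIs in males and 9615 and 10157 in females. With 5 to 19 UMIs it was at 159 and 115 CPM, and with 20 or more at 163 and 168. This largest step lay between the bins of 1 to 4 and of 5 to 19 UMIs, and the latter bin held 93 male and 20 female cells. The edge between these bins was set at the class threshold, so they cannot place the step more finely. *Rarg* had the same step, from 7.92 to 39.3 CPM in males and from 4.73 to 43.1 in females.

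**Figure D4:**
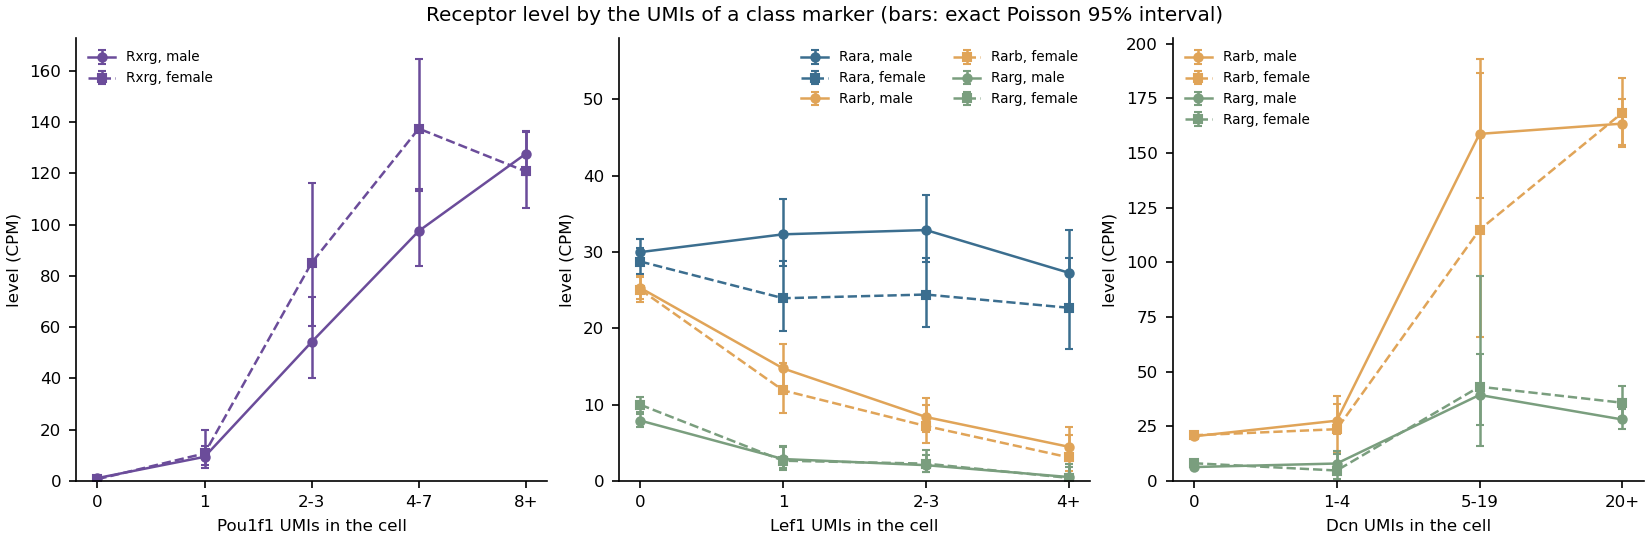
Receptor level (vertical axes, CPM, from 0) by the UMIs of *Pou1f1*, *Lef1* or *Dcn* in the cell (horizontal axes, binned) in the male (solid lines, circles) and female (dashed lines, squares) library, with exact Poisson 95% intervals as bars. In males, *Rxrg* goes from 1.08 to 128 CPM along *Pou1f1*, and *Rarb* from 25.3 to 4.46 CPM along *Lef1* while *Rara* stays between 27.3 and 32.9. In females, *Rara* goes from 28.7 to 22.7 CPM along *Lef1*. The cells had *Dcn*, *Pomc*, *Cga* and *Pou1f1*, apart from the binned marker, under their class thresholds.

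Subsets of a class were compared in the same way. SCs with 2 or more UMIs of *Ednrb*, an endothelin receptor, had more *Rarg* than SCs without, 11.7 against 6.76 CPM in males and 14.4 against 9.60 in females. The ratios were 1.73 (1.28–2.34) and 1.5 (1.11–2.05). *Rarb* was at 30.1 against 25.8 and 29.4 against 23.1 CPM, with ratios of 1.17 (0.988–1.38) and 1.27 (1.04–1.55), and the intervals of the other 4 receptors included 1. The *Ednrb*-rich male SCs were deeper, with a median of 17323 against 11172 UMIs, while the female ones were alike (10423 against 9784.5). Between SCs rich and poor in *Aldh1a2*, the main RA-making enzyme of these cells, no receptor had an interval clear of 1 in either library. Cycling and non-cycling SCs differed in none in males and only in *Rarb* in females, at 0.814 (0.666–0.993). Among differentiating cells, no receptor differed beyond its interval with *Shh* or *Cdkn1a*.

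Within the POU1F1 lineage, cells with under 5 UMIs of both *Gh* and *Prl* had *Rxrg* at 135 CPM (533 male cells) and 133 CPM (208 female cells). *Tshb*, the thyrotroph hormone gene, was not used in this split and was at 119 and 1095 CPM in the class. *Prl*-rich male cells (51) had 62.9 CPM, a ratio of 0.467 (0.346–0.617) that was 0.475 (0.352–0.628) with hormone-free totals. The female library had only 5 such cells, at 178 CPM and a ratio of 1.33 (0.703–2.31). *Gh*-rich cells had 95.6 and 89.1 CPM, with ratios of 0.708 (0.573–0.868) and 0.668 (0.494–0.887). Hormone and mitochondrial genes took 18.1% and 25.5% of UMIs in *Gh*-rich cells, against 3.33% and 4.65% in cells low in *Gh* and *Prl*. Without them the ratios were 0.837 (0.676–1.03) and 0.854 (0.632–1.13), so that the lower *Rxrg* of *Gh*-rich cells was not detectable on that scale. For no other receptor was an interval clear of 1 in both libraries. In 1 library each, *Rxra* was higher in *Gh*-rich male cells (2.82, 1.36–5.49, 13 UMIs) and *Rarb* in *Gh*-rich female cells (4.17, 1.47–11.9, 9 UMIs), while *Rara* was lower in *Prl*-rich male (5 UMIs) and *Gh*-rich female cells (1 UMI). *Rarb* was lower in *Prl*-rich male cells, with 0 UMIs against 4.93 CPM and a ratio of at most 0.736 (interval up to 0.95).

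Between the libraries, 2 of 18 tested pairs of receptor and class were past 1.5-fold. All genes tested were so in 3.13% of cases in SCs, 3.27% in differentiating cells, 21.4% in gonadotrophs, 5.9% in POU1F1-lineage cells, 22.3% in melanotrophs and 8.79% in mesenchymal cells. The pairs were *Rxrb* in gonadotrophs, 1.79-fold higher in the male library (0.886–4.22), and *Rara* in melanotrophs, at a male to female ratio of 0.523 (0.257–1.09). Both intervals included 1, and both classes had a high background of calls. *Rarg* in SCs had a ratio of 0.693 (0.576–0.834) and *Rara* in differentiating cells of 1.29 (1.07–1.55), with intervals clear of 1 but under 1.5-fold. In POU1F1-lineage cells *Rarg* was at 0.499 (0.308–0.817), below 10 CPM in both libraries. *Rarb* in mesenchymal cells (0.979, 0.876–1.10) and *Rxrg* in POU1F1-lineage cells (1.01, 0.907–1.13) were near 1.

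Other genes of the pathway were read from a fixed list of 50. Against SCs, 3 were higher and 3 lower of 24 tested in differentiating cells, 3 and 7 of 25 in gonadotrophs, 3 and 6 of 25 in POU1F1-lineage cells and 1 and 8 of 23 in melanotrophs. In mesenchymal cells 11 were higher and 5 lower of 31, some of which reached the minimum only there. These shares stand beside the 16.5% to 26.8% of all genes given above. The enzymes *Aldh1a1* and *Aldh1a2* were lower than in SCs in all 5 classes. *Aldh1a2* was at 751 and 534 CPM in SCs and at 139 and 134 in differentiating cells, and at most 105 elsewhere.

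The 13 direct RA targets on the list, *Rarb* among them, mostly lay under 10 CPM outside mesenchymal cells. In mesenchymal cells 9 passed the minimum and 8 of these were higher, against 3 that passed in each other class. Several passed only because they were high there, so that the count is a description and does not speak for all 13. *Cyp26a1*, which degrades RA, was at 23.2 and 27.6 CPM against 0.111 and 0.0985 in SCs. *Dhrs3*, which turns retinaldehyde back to retinol, was at 278 and 338 against 5.92 and 5.66. *Stra6*, *Tgm2*, *Rarres2* and *Hic1* were also higher, and *Crabp2*, which carries RA to the nucleus, was lower at 42.7 and 39.2 against 219 and 177. *Crabp2* was also lower in gonadotrophs, POU1F1-lineage cells and melanotrophs, at 6.24 to 71.8 CPM.

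Among 13 other partners of RXR, *Thrb*, the thyroid hormone receptor beta, went with *Rxrg*. It was at 98.1 and 100.1 CPM in POU1F1-lineage cells against 5.44 and 3.94 in SCs, and was also called higher in differentiating cells (13.1 and 12.2). *Nr1h2*, a liver X receptor, was lower in POU1F1-lineage cells, gonadotrophs and melanotrophs, at 9.35 to 22.9 CPM against 48.5 and 49.2. The co-activator *Ncoa1* was higher in differentiating cells, gonadotrophs and POU1F1-lineage cells, at 77.6 to 126 CPM against 35.8 and 36.1. Of 6 co-repressors, only *Nrip1* in melanotrophs was called, lower at 44.9 and 40.1 against 92.1 and 92.4. This call depended on the scaling, since the ratios to SCs of 0.488 and 0.434 became 0.676 and 0.507 with hormone-free totals, under which *Lcor* was called higher instead, at 2.29 and 2.45.

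The genes most like each receptor were ranked by Pearson's r of log2(CPM + 5) over the 12 sums, among 10535 genes. These sums share libraries and depth, and the values are descriptions. For *Rxrg* they were *Gm4319* (0.999), *Gm32647* (0.997) and *Pou1f1* (0.992), the last of which defines the class. For *Rarb* they were *Mmd* (0.992), *Rin3* (0.982) and *Wwtr1* (0.982), and for *Rarg* *Efemp2* (0.983), *Ednra* (0.980) and *Sdc2* (0.980). *Rara* was most like *Cdk7*, *Mapkap1* and *Hsd17b4* (0.970 to 0.973), *Rxra* like *Lmf2*, *Crlf3* and *Ifnar2* (0.951 to 0.965), and *Rxrb* like *Traf7*, *Mcrs1* and *Zfp651* (0.931 to 0.946). Among the receptors themselves, *Rarg* was close to *Rxra* (0.908) and *Rarb* (0.907), while *Rxrg* was near 0 or below with all others (-0.23 to 0.04).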

How the data were processed

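GFP+ve cells of P3 pituitaries were sequenced, with 1 library for each sex. The authors processed reads with Cell Ranger 3.0.2 against mm10 with eGFP added. They deposited counts of UMIs per gene and barcode without normalization for 31055 features (71 share a symbol, none a retinoid receptor gene). The kit's chemistry is given differently in different sources. Barcodes with under 50 genes or a mitochondrial share over 3 SD above the library mean (20.4% male, 26.1% female) were removed as in the methods, leaving 10410 of 10569 male and 5711 of 5796 female barcodes. Cells under 2000 UMIs were then left out.

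Classes, by UMIs in a cell: mesenchymal, 5 *Dcn*. Melanotroph, 50 *Pomc* and 1 *Pax7*. Gonadotroph, 20 *Cga* and 1 of *Gnrhr*, *Nr5a1*, *Fshb* or *Lhb*. POU1F1 lineage, 2 *Pou1f1*. Differentiating, 2 *Lef1*. SCs, 3 *Sox2*, 1 *Sox9* and no *Lef1*. The last 2 also needed the other markers under their thresholds. Cells that met several rules were left out as mixed (187 male, 52 female), which was the treatment of doublets, and no doublet caller was run.

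UMIs were summed per class and library (Python 3.11.15, numpy 2.4.6, scipy 1.17.1, pandas 2.3.3, matplotlib 3.10.9). Ratios have exact conditional binomial and shares exact Clopper-Pearson 95% intervals, and 3 counts set the limit where a sum was 0. Shares of cells with a UMI were also taken after drawing cells down to 5000 UMIs (seed 1). The steps were tested on simulated data. The members, lists, thresholds and tests were chosen with earlier results of these data known. The 6 receptors were described throughout, pathway genes were named from among those called, with some items not reported here, and the 3 genes most like each receptor were named. The alternatives were 10 in number. The other scalings of hormone-rich cells and of pathway genes were added after seeing the data.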

Additional observations from a re-analysis of the deposited data

How the results depend on the processing

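All 16 ratios behind the 8 called receptor pairs, 1 for each library, kept their direction under the 9 alternatives that could change them, and all 16 stayed within their intervals under both scalings, both other UMI minimums and the 10% mitochondrial limit. The called pairs numbered 8 or 9 under these and the marker alternatives, the ninth being *Rara* in POU1F1-lineage cells under median-of-ratios scaling and without cells of high UMIs. Leaving out cells over 2 times the median UMIs gave *Rarb* in male POU1F1-lineage cells a ratio to SCs of 0.121. Stricter marker thresholds gave *Rarb* ratios of 0.155 and 0.122 in male and female differentiating cells and at most 0.361 in female gonadotrophs, of which fewer cells were left, and 561 genes past 1.5-fold between the libraries in differentiating cells against 272. The *Rarg* ratios in differentiating cells moved further, to 0.0534 and 0.0281. Looser thresholds gave *Rarb* ratios of 0.372 and 0.322 in differentiating cells, and melanotrophs taken by *Pomc* alone gave *Rara* a male ratio of 0.305. Under either of these, 1 pair was past 1.5-fold between the libraries in place of 2. With no minimum level, so that genes of few UMIs were counted, called pairs numbered 13 against SCs and 8 between the libraries. All genes past 2-fold then numbered 4287 in differentiating cells, 5740 in gonadotrophs, 4847 in POU1F1-lineage cells, 6729 in melanotrophs and 5897 in mesenchymal cells. Those past 1.5-fold between the libraries numbered 5174 in SCs, 4709, 8439, 5668 and 6707 in the same classes and 5367 in mesenchymal cells. No paired test was made, since there was 1 library of each sex and the labels give no replicate numbers. Classes were set against SCs within each library, and the sexes, with 1 library each, have no replicate. Depth limits all statements on *Rxrg* outside POU1F1-lineage cells and on female gonadotrophs.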

Other observations

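Cells that met no class rule, 3344 male and 2578 female, had *Rara* at 28.4 and 24.4 CPM, *Rarb* at 16.7 (15.3–18.1) and 20 (18.3–21.8), below SCs, *Rxrb* at 26.0 and 26.0 and *Rxrg* at 1.46 and 0.994. *Rxrg* in the cells that met several rules was at 31.7 (27.0–37.0) and 22.4 (14.4–33.4) CPM. Summed over all cells used, *Rxrg* was at 15.2 and 8.31 CPM, in libraries where POU1F1-lineage cells made up 8.60% and 4.65% of cells. The gate can set those shares. The eGFP reporter itself was at 27.3 and 19.6 CPM in SCs and at 6.19 and 2.80 CPM in POU1F1-lineage cells.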
